A study of Homo sapiens with 9 samples.

Results

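Macroautophagy encloses cytoplasm in a double membrane, the autophagosome, and delivers it to the lysosome. The kinases mTORC1 and AMPK act upstream, and they respectively restrain and activate the ULK complex, which starts the process. A class III phosphatidylinositol 3-kinase complex then marks the membrane with a lipid that WIPI proteins bind, lipid transfer proteins extend that membrane, and a pair of ubiquitin-like conjugation systems attaches ATG8 proteins to it. In liver cells the pathway supplies amino acids during fasting and removes damaged organelles. The 39 genes described here are this core machinery and its upstream kinases, chosen by name and grouped by complex, with 5 genes of the ULK complex, 6 of the PI3K complex, 9 of the WIPI and lipid transfer group, 10 of ATG conjugation, 2 of autophagosome-lysosome fusion, 5 of mTORC1 and the TSC complex and 2 catalytic subunits of AMPK. All 39 were found among the 60664 genes of the count table, and all 39 passed the filter on low counts that left 17207 genes for testing.

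The cells were Huh-7, a line derived from a hepatocellular carcinoma, as WT cells and as cells with the genotypes 1-1 KO and 1-2 KO, which lack vtRNA1-1 and vtRNA1-2, respectively. These vault RNAs are short noncoding RNAs made by RNA polymerase III. RNA was taken from untreated cells in complete medium, so that the comparisons are of fed and not of starved cells, and each line gave 3 mRNA libraries. By the study's methods, WT and 1-1 KO cells came from another laboratory, and the 1-2 KO line was grown from 1 cell after CRISPR/Cas9 editing of the WT cells. Each knockout was thus 1 line, and the loss of a vault RNA and other differences between lines cannot be told apart here. The labels do not say whether the 3 libraries came from separate cultures, so the p-values measure the spread between these libraries, which may be technical. Changes in the number of cells and in RNA per cell also cannot be told apart in such bulk samples.

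The deleted RNAs are shown because they define the lines. Their genes, both single-exon vault RNA genes on the plus strand, lie at chr5:140711275-140711373 and chr5:140718925-140719013 in GRCh38 and are 99 and 89 nucleotides long. In the sequences, read from the genome, the first 30 and last 5 bases, in lower case, are identical. Capitals mark the middle part between these shared ends. It begins and ends with bases that differ, but it also holds stretches that are the same in both genes.

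VTRNA1-1: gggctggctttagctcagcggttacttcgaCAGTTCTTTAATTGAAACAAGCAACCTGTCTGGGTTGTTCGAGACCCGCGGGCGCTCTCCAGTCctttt

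VTRNA1-2: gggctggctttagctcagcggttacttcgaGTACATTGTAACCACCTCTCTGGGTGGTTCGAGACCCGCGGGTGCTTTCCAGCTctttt

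Total counts per library were between 32384469 and 41782387. Of the vault RNAs themselves, the libraries held 1 count of VTRNA1-1 in WT replicate 1 and 0 in all the others, and 0 counts of VTRNA1-2 in every library, so these mRNA libraries do not check the deletions. Replicates of every line differed by more than counting noise, and 1-2 KO replicate 1 stood apart from the other two of its line, at a chi-square of 14.8 and 15.8 per degree of freedom against 2.63 between the other two. Each hepatocyte marker was above 3 counts in at least 1 library. However, their summed level was 15056 to 15996 CPM (counts relative to library size, scaled by the TMM method) in WT, 31226 to 32166 in 1-1 KO and 21246 to 23268 in 1-2 KO cells. Markers of leukocytes, endothelium, fibroblasts and squamous epithelium summed to 22.3 to 23.4, 22.7 to 24.0 and 20.5 to 21.3 CPM. Of these 12 genes, only the squamous keratins KRT5 and KRT14 were at 3 counts or fewer in every library. Single markers moved in both directions behind these sums. Of the 5 non-hepatocyte markers tested, 2 were higher in 1-1 KO cells than in WT (edgeR, adjusted p under 0.05). In 1-2 KO cells 4 were higher and 1 lower, with changes from -3.17 to 2.65 on the log2 scale. Of the 10 hepatocyte markers, 8 were higher and 1 lower in 1-1 KO cells, with a median of 0.48. In 1-2 KO cells 4 were higher and 3 lower, with a median of 0.05 and changes from -0.64 to 2.08. The part of the hepatocyte markers' shift in the differences below was not tested.

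The members together took a larger share of the counts in 1-1 KO cells and a smaller one in 1-2 KO cells. The smaller share lay in PRKAA1, the most abundant of them, and not in the other 38. The 39 genes held 0.218% to 0.223% of all counts in the WT libraries, 0.245% to 0.248% in the 1-1 KO libraries and 0.201% to 0.205% in the 1-2 KO libraries, and these ranges did not overlap. Without PRKAA1, the other 38 held 0.180% to 0.183% in WT, 0.202% to 0.206% in 1-1 KO and 0.183% to 0.187% in 1-2 KO cells, the last of which overlapped WT. Their summed level after TMM scaling was 1867 ± 22.1 CPM (SD, n = 3), 2026 ± 18.03 and 1829 ± 37.9. In 1-1 KO cells 18 members were higher and 6 lower than in WT (edgeR, adjusted p under 0.05), which was 61.5% of the members beside a background of 63.4% of all tested genes. By direction, the background was 32.5% higher and 30.9% lower. In 1-2 KO cells 9 were higher and 14 lower, 59.0% of the members beside a background of 54.4%, with 28.2% of all genes higher and 26.2% lower. Scaling by library size alone turned that split to 11 higher and 6 lower. The share of members called was therefore near that of any genes in both knockouts.

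Most of the changes were small. The median size of change, regardless of direction, was 0.19 on the log2 scale for the members and 0.35 for all genes in 1-1 KO cells, and 0.13 and 0.27 in 1-2 KO cells. With direction, the members' median was 0.07 in 1-1 KO cells and -0.07 in 1-2 KO cells, beside 0.01 and 0.02 for all tested genes. Changes of over 0.5 on the log2 scale were found for 6 members in 1-1 KO cells (WIPI1, WIPI2, ATG2B, ZFYVE1, ATG10 and DEPTOR) and for 5 in 1-2 KO cells (ULK1, ULK2, ATG10, DEPTOR and PRKAA1), while 31.3% and 24.1% of all genes passed that limit. Tested against a change of 1.2-fold, 12 members differed in 1-1 KO cells and 6 in 1-2 KO cells, beside 37.9% and 28.1% of all genes. The libraries of the 2 lines compared did not overlap for 27 members in 1-1 KO cells and 23 in 1-2 KO cells, beside 68.9% and 58.4% of all genes. The plot of all members by library shows where in the pathway the larger changes sat.

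**Figure D1:**
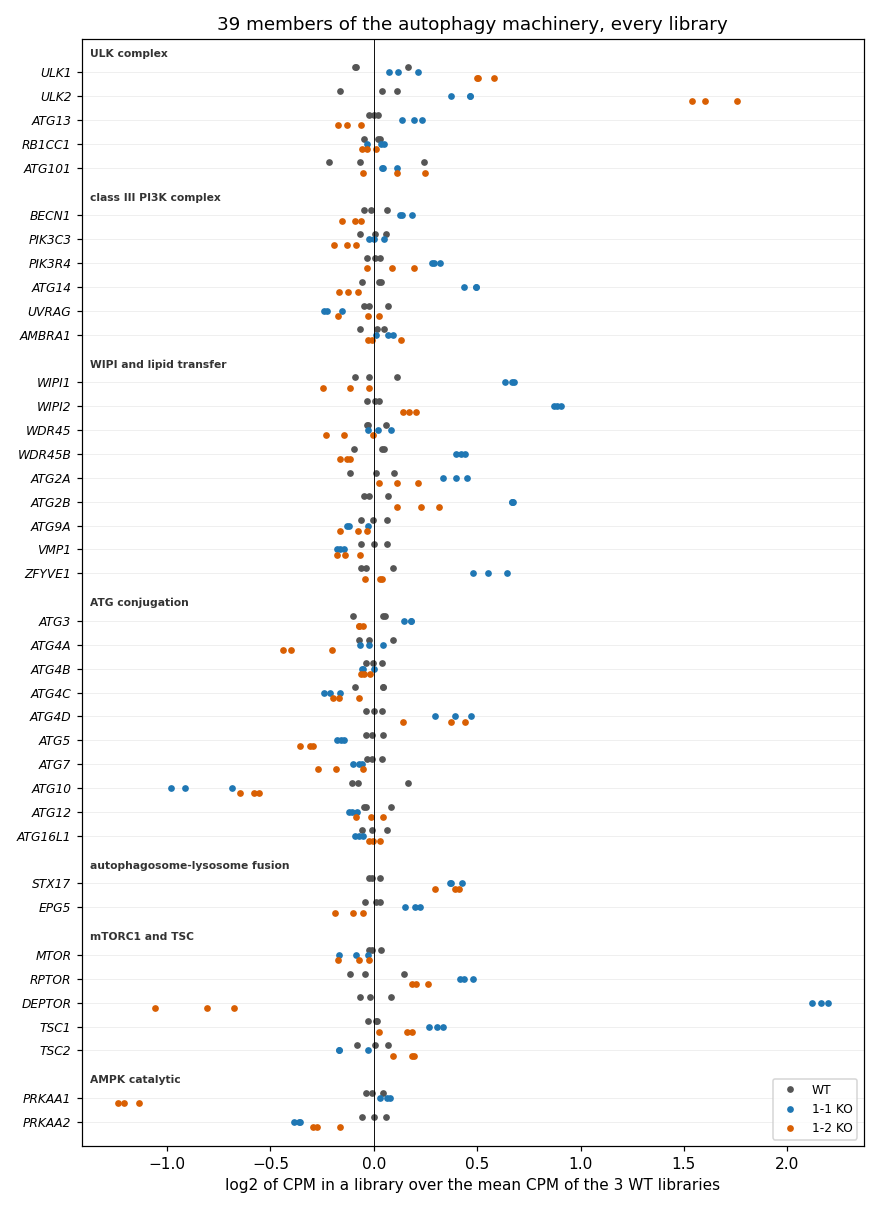
Level of each of the 39 members in each library, as the log2 of its CPM over the mean of the 3 WT libraries, with members grouped by complex (gray, WT; blue, 1-1 KO; orange, 1-2 KO). Most points lie close to 0, DEPTOR and 6 of the 9 WIPI and lipid transfer genes stand to the right in 1-1 KO cells, and ULK2 and PRKAA1 stand to opposite sides in 1-2 KO cells.

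The ULK complex, the kinase that starts autophagosome formation, differed from WT mainly in its alternative kinases, and in 1-2 KO cells. ULK1, the main kinase, was at 35.9, 35.8 and 42.8 CPM in WT, 41.4, 44.2 and 40.2 in 1-1 KO and 57.1, 53.8 and 54.2 in 1-2 KO cells. All 1-2 KO libraries were above all others, and the increase over WT was 0.53 ± 0.06 (SE) on the log2 scale, or 1.45-fold, with an adjusted p of 7.5e-06. The 1-1 KO and WT libraries overlapped, with a difference of 0.14 ± 0.06 and an adjusted p of 0.076.

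ULK2, its less abundant paralogue, was at 1.21, 1.39 and 1.46 CPM in WT, 1.87, 1.75 and 1.86 in 1-1 KO and 4.56, 3.92 and 4.09 in 1-2 KO cells. The lines did not overlap. It rose by 0.44 ± 0.14 in 1-1 KO cells (adjusted p = 0.011) and by 1.64 ± 0.12, or 3.11-fold, in 1-2 KO cells (adjusted p = 6.2e-08). The first of these calls rested on WT replicate 1, since without it the change was 0.36 with an adjusted p of 0.058. With both kinases higher in 1-2 KO cells, the ratio of ULK1 to ULK2 per kilobase of exon went from 36.7 ± 2.83 (SD, n = 3) in WT to 29.8 ± 2.57 in 1-1 KO and 17.05 ± 0.80 in 1-2 KO cells.

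ATG13, the adaptor that joins the kinase to the rest of the complex, was at 83.3, 81.0 and 82.4 CPM in WT, 94.2, 96.5 and 90.3 in 1-1 KO and 73.0, 75.1 and 78.9 in 1-2 KO cells. It was higher in 1-1 KO cells by 0.19 ± 0.04 (adjusted p = 0.00076) and lower in 1-2 KO cells by a difference of -0.12 ± 0.04 (adjusted p = 0.018). The scaffold RB1CC1, also known as FIP200, and ATG101, which stabilizes ATG13, passed the test in neither knockout. RB1CC1 differed from WT by 0.02 ± 0.04 and -0.03 ± 0.04, and ATG101, whose libraries spread widely in WT, by 0.07 ± 0.09 and 0.11 ± 0.09.

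Of the 6 genes of the PI3K complex, 3 rose and 1 fell in 1-1 KO cells, and 3 fell in 1-2 KO cells. That was 66.7% and 50% of the complex, near the 63.4% and 54.4% of all tested genes that were called. Scaled by library size alone, the 3 falls in 1-2 KO cells were not called, and 1 member rose. ATG14, the subunit that directs the complex to forming autophagosomes, was at 27.0, 28.6 and 28.8 CPM in WT, 39.6, 38.1 and 39.7 in 1-1 KO and 25.02, 25.8 and 26.7 in 1-2 KO cells. The 1-1 KO libraries were well above the others, by 0.47 ± 0.05 over WT (adjusted p = 8.4e-07), and those of 1-2 KO were just below WT, with a difference of -0.12 ± 0.05 (adjusted p = 0.045). UVRAG, which replaces ATG14 in the complex that acts on endosomes, went the other way in 1-1 KO cells, with a change of -0.21 ± 0.06 (adjusted p = 0.011), a call that ended without WT replicate 2 (-0.17, adjusted p = 0.051). Per kilobase of exon the ratio of ATG14 to UVRAG was 2.00 ± 0.07 (SD, n = 3) in WT, 3.21 ± 0.08 in 1-1 KO and 1.91 ± 0.10 in 1-2 KO cells.

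BECN1, the regulatory subunit beclin 1, was at 88.8, 82.2 and 84.1 CPM in WT, 93.6, 92.7 and 96.8 in 1-1 KO and 76.4, 79.9 and 81.6 in 1-2 KO cells. Its libraries did not overlap between lines, although the differences from WT were no more than 0.15 ± 0.04 and -0.10 ± 0.04 (adjusted p = 0.0044 and 0.044). PIK3R4, the pseudokinase that anchors the complex to membranes, was at 54.8, 52.5 and 54.0 CPM in WT, 67.1, 65.2 and 65.8 in 1-1 KO and 52.6, 61.4 and 57.0 in 1-2 KO cells. It rose by 0.30 ± 0.05 in 1-1 KO cells (adjusted p = 0.00012), and its 1-2 KO libraries overlapped those of WT. The lipid kinase PIK3C3 itself was at 29.9, 32.5 and 31.4 CPM in WT, 30.7, 32.3 and 31.3 in 1-1 KO and 27.3, 29.5 and 28.5 in 1-2 KO cells. It overlapped WT in 1-1 KO cells and fell by 0.14 ± 0.05 in 1-2 KO cells (adjusted p = 0.035). AMBRA1, a scaffold that supports beclin 1, passed the test in neither, at 0.06 ± 0.05 and 0.03 ± 0.05.

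The WIPI and lipid transfer group, which reads the lipid signal and feeds lipids into the growing membrane, had the highest median change of any group in 1-1 KO cells, at 0.42 on the log2 scale. There 6 of the 9 genes rose and 1 fell, 77.8% of the group beside 63.4% of all tested genes. In 1-2 KO cells 2 rose and 2 fell (3 and 0 when scaled by library size alone), 44.4% beside 54.4%, with a median of -0.09. Their summed level was 447.8 to 465.1 CPM in WT, 554.1 to 568.8 in 1-1 KO and 437.7 to 456.7 in 1-2 KO cells. The 50 tested genes nearest each of the 9 had median changes that themselves had a median of 0.22 in 1-1 KO cells. In 1-2 KO cells that median was 0.07.

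WIPI2, which recruits the ATG16L1 complex to the membrane, was at 59.4, 60.9 and 61.8 CPM in WT, 112, 114 and 111 in 1-1 KO and 67.0, 69.8 and 68.4 in 1-2 KO cells. It rose 1.85-fold in 1-1 KO cells, by 0.89 ± 0.03 (adjusted p = 4.6e-11), and by 0.17 ± 0.03 in 1-2 KO cells (adjusted p = 0.00071). WIPI1, its closest paralogue, was at 13.2, 14.5 and 12.6 CPM in WT, 21.3, 21.5 and 20.8 in 1-1 KO and 13.2, 12.4 and 11.3 in 1-2 KO cells. Its increase in 1-1 KO cells was 0.66 ± 0.07 (adjusted p = 1.6e-06), while the 1-2 KO libraries overlapped those of WT. WDR45B, the most abundant of the 4 WIPI genes per kilobase of exon, rose by 0.42 ± 0.04 in 1-1 KO cells (adjusted p = 5.1e-07) and fell by 0.14 ± 0.04 in 1-2 KO cells (adjusted p = 0.012). WDR45, encoded on the X chromosome, passed the test in neither. Per kilobase of exon, WIPI2 made up 15.1% ± 0.36 (SD, n = 3) of the 4 genes in WT, 20.0% ± 0.12 in 1-1 KO and 18.0% ± 0.32 in 1-2 KO cells, and WDR45B between 59.9% and 62.3% of them in the means of all lines.

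ATG2A and ATG2B, the bridge-like proteins that carry lipids from the endoplasmic reticulum to the forming membrane, both rose in 1-1 KO cells. ATG2B was at 30.2, 32.2 and 29.7 CPM in WT, 48.8, 48.9 and 48.8 in 1-1 KO and 33.2, 38.2 and 36.0 in 1-2 KO cells. The lines did not overlap, and the increases were 0.67 ± 0.05 (adjusted p = 7.7e-08) and 0.22 ± 0.05 (adjusted p = 0.0032). ATG2A rose by 0.40 ± 0.06 in 1-1 KO cells (adjusted p = 7.1e-05) and differed from WT by 0.12 ± 0.06 in 1-2 KO cells, with an adjusted p of 0.12. ZFYVE1, also called DFCP1, which marks the membrane sites where autophagosomes arise, was at 8.74, 9.60 and 8.62 CPM in WT, 14.0, 13.2 and 12.6 in 1-1 KO and 8.71, 9.17 and 9.23 in 1-2 KO cells. Only its 1-1 KO libraries lay apart, with an increase of 0.56 ± 0.07 (adjusted p = 1.1e-05). The scramblase VMP1 was the member of this group that fell in both knockouts, with changes of -0.16 ± 0.04 and -0.13 ± 0.04 (adjusted p = 0.0027 and 0.015), the latter not called when scaled by library size alone. The scramblase ATG9A passed the test in neither, at -0.09 ± 0.05 in each, and 1833 nucleotides of its exons are shared on the same strand with another annotated gene.

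Among the 10 conjugation genes, falls outnumbered rises in 1-2 KO cells, at 5 against 1 (3 against 1 when scaled by library size alone), and in 1-1 KO cells 3 fell and 2 rose. The share called was 60% in 1-2 KO and 50% in 1-1 KO cells, beside 54.4% and 63.4% of all tested genes. ATG10, the E2-like enzyme that joins ATG12 to ATG5, was at 11.1, 13.2 and 10.9 CPM in WT, 7.30, 6.25 and 5.96 in 1-1 KO and 7.502, 7.99 and 7.86 in 1-2 KO cells. Both knockouts were below all WT libraries, with changes of -0.85 ± 0.10 (adjusted p = 2.5e-06) and -0.60 ± 0.09 (adjusted p = 9.4e-05). ATG5, the acceptor of ATG12, was at 73.6, 77.9 and 75.2 CPM in WT, 68.4, 66.8 and 67.6 in 1-1 KO and 59.1, 61.0 and 61.7 in 1-2 KO cells. It too was lower in both, with changes of -0.16 ± 0.04 and -0.32 ± 0.04 (adjusted p = 0.0015 and 4.4e-06). ATG12 and ATG16L1, the other parts of the same conjugate, passed the test in neither knockout, with differences of -0.10 and -0.02 for ATG12 and -0.07 and 0.00 for ATG16L1, each with an SE of 0.05.

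The enzymes of the ATG8 branch moved little. ATG7, the E1-like enzyme of both systems, fell by 0.17 ± 0.05 in 1-2 KO cells (adjusted p = 0.016), and ATG3, the E2-like enzyme for ATG8 proteins, rose by 0.17 ± 0.04 in 1-1 KO cells (adjusted p = 0.0025). Of the 4 proteases that prime and release ATG8 proteins, ATG4B, the most active of them, was called in neither knockout, at -0.04 ± 0.04 in both. ATG4D was at 8.02, 7.81 and 8.24 CPM in WT, 11.1, 10.5 and 9.85 in 1-1 KO and 10.4, 8.84 and 10.9 in 1-2 KO cells, above WT in all 6 knockout libraries, by 0.39 ± 0.09 and 0.32 ± 0.09 (adjusted p = 0.0013 and 0.0058). ATG4C fell in both knockouts, with changes of -0.21 ± 0.06 and -0.15 ± 0.06 (adjusted p = 0.0063 and 0.043), and ATG4A fell in 1-2 KO cells by 0.34 ± 0.07 (adjusted p = 0.00089). Per kilobase of exon, ATG4D made up 11.9% ± 0.53 (SD, n = 3) of the family in WT, 15.7% ± 0.61 in 1-1 KO and 15.8% ± 1.10 in 1-2 KO cells.

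STX17, the SNARE protein on the finished autophagosome, was at 28.9, 29.2 and 30.02 CPM in WT, 38.0, 38.1 and 39.5 in 1-1 KO and 36.0, 38.5 and 39.1 in 1-2 KO cells. It rose to a like extent in both knockouts, by 0.39 ± 0.05 and 0.37 ± 0.05 (adjusted p = 4.6e-06 and 1.2e-05), and the 95% interval of the difference between them was -0.12 to 0.07. EPG5, the tether that links autophagosomes to lysosomes, was at 24.3, 24.7 and 23.5 CPM in WT, 26.8, 27.7 and 28.2 in 1-1 KO and 21.2, 23.3 and 22.5 in 1-2 KO cells. It rose by 0.19 ± 0.05 in 1-1 KO cells (adjusted p = 0.0053), and its difference of -0.11 ± 0.05 in 1-2 KO cells had an adjusted p of 0.085.

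Of the upstream regulators, DEPTOR, an inhibitory subunit that binds mTOR, had the largest change of all 39 members in 1-1 KO cells. It was at 2.54, 2.45 and 2.73 CPM in WT, 11.2, 11.5 and 11.8 in 1-1 KO and 1.23, 1.61 and 1.47 in 1-2 KO cells. It rose 4.47-fold in 1-1 KO cells, by 2.16 ± 0.10 (adjusted p = 2.1e-10), and fell in 1-2 KO cells by 0.84 ± 0.12 (adjusted p = 4.1e-05). The counts behind these values were 86 to 101 per library in WT, 473 to 481 in 1-1 KO and 52 to 64 in 1-2 KO cells. The lines did not overlap.

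The kinase MTOR itself was called in neither knockout, at -0.09 ± 0.05 in both. RPTOR, or raptor, the subunit that recruits substrates to mTORC1, was at 44.1, 46.4 and 52.9 CPM in WT, 63.8, 66.7 and 64.7 in 1-1 KO and 57.3, 54.4 and 55.0 in 1-2 KO cells. It rose in both, by 0.45 ± 0.06 and 0.22 ± 0.06 (adjusted p = 7.5e-06 and 0.0044). The ratio of RPTOR to DEPTOR, also per kilobase of exon, was 4.73 ± 0.27 (SD, n = 3) in WT, 1.44 ± 0.04 in 1-1 KO and 9.99 ± 1.65 in 1-2 KO cells. TSC1 and TSC2 form the complex that switches off the mTORC1 activator RHEB. TSC1 rose by 0.30 ± 0.05 and 0.12 ± 0.05 (adjusted p = 4.8e-05 and 0.034), and TSC2 rose by 0.16 ± 0.05 in 1-2 KO cells (adjusted p = 0.017), while in 1-1 KO cells its difference was -0.12 ± 0.05 with an adjusted p of 0.053.

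PRKAA1 and PRKAA2 encode the alternative catalytic subunits of AMPK, the kinase that senses low energy. PRKAA1 was at 394, 410 and 386 CPM in WT, 414, 405 and 419 in 1-1 KO and 168, 181 and 172 in 1-2 KO cells. The 1-1 KO libraries overlapped those of WT, and the 1-2 KO libraries were 2.29-fold lower, with a change of -1.19 ± 0.04 (adjusted p = 7.5e-12). PRKAA2 was at 78.0, 81.3 and 75.01 CPM in WT, 60.9, 59.7 and 60.9 in 1-1 KO and 63.8, 69.6 and 64.6 in 1-2 KO cells, and fell in both, with changes of -0.37 ± 0.04 and -0.24 ± 0.04 (adjusted p = 3.7e-06 and 0.00024). Per kilobase of exon the ratio of PRKAA1 to PRKAA2 was 7.25 ± 0.08 (SD, n = 3) in WT, 9.74 ± 0.07 in 1-1 KO and 3.75 ± 0.05 in 1-2 KO cells. Their summed level was 460.8 to 490.9 CPM in WT, 464.9 to 479.8 in 1-1 KO and 231.7 to 250.2 in 1-2 KO cells.

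**Figure D2:**
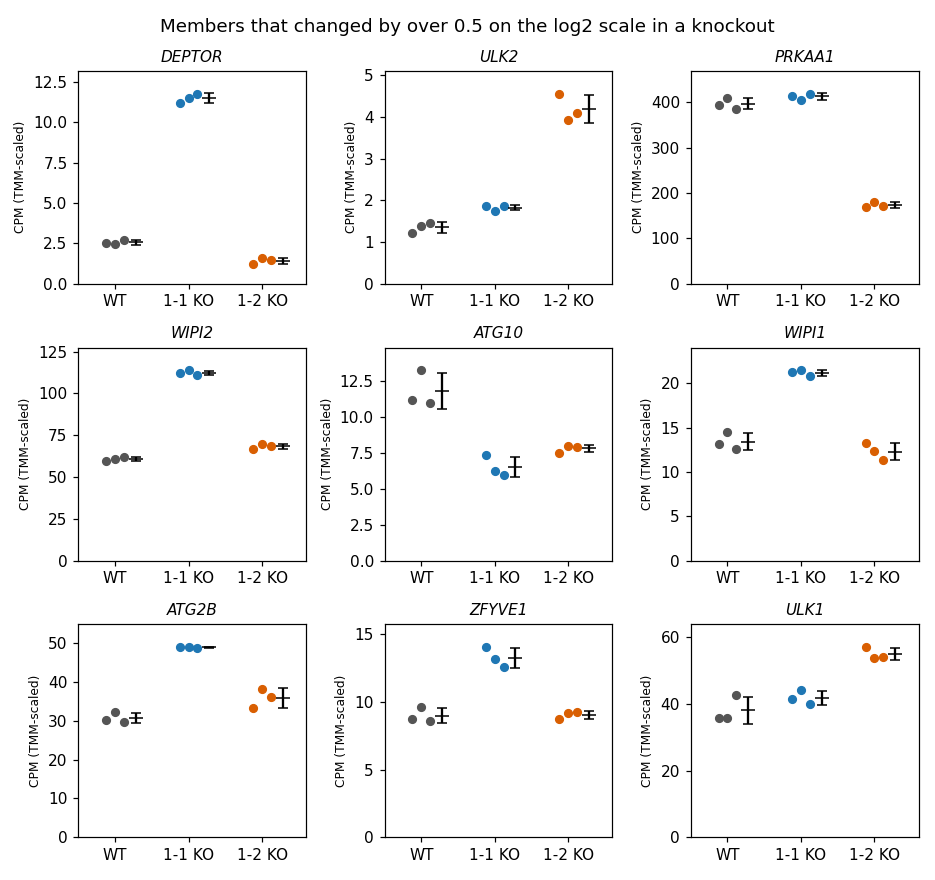
CPM of the 9 members that changed by over 0.5 on the log2 scale in at least one knockout, with each library as a point and the mean and SD of the 3 libraries beside them, on axes that start at 0. DEPTOR is at 11.2 to 11.8 CPM in 1-1 KO cells and 1.23 to 1.61 in 1-2 KO cells, PRKAA1 falls to 168 to 181 CPM in 1-2 KO cells alone, and ATG10 is lower in both knockouts.

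Both knockouts were set against the same WT libraries, so the members' classes are given only as counts. Across both comparisons, 7 members were higher in each knockout (ULK2, WIPI2, ATG2B, ATG4D, STX17, RPTOR and TSC1), beside 13.9% of all tested genes, and 5 were lower in each (VMP1, ATG4C, ATG5, ATG10 and PRKAA2), beside 13.4%. Opposite calls were made for 5 members, ATG13, BECN1, ATG14, WDR45B and DEPTOR, all higher in 1-1 KO and lower in 1-2 KO cells, beside 11.7% of all genes with opposite calls of either kind. Scaled by library size alone, DEPTOR was the 1 of these 5 still lower in 1-2 KO cells. Another 9 members were called in neither (RB1CC1, ATG101, AMBRA1, WDR45, ATG9A, ATG4B, ATG12, ATG16L1 and MTOR), beside 21.2%.

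The knockouts were also compared with each other, which tests the difference between them directly. Between 1-2 KO and 1-1 KO cells, 20 members were lower in 1-2 KO cells and 5 were higher, 64.1% of the members beside a background of 65.3%, of which 33.1% of all genes were higher and 32.2% lower. The libraries of 25 members did not overlap, beside 69.8% of all genes, 8 members differed by over 0.5 on the log2 scale, beside 34.2%, and 10 passed the test against 1.2-fold, beside 40.9%. The members' median was -0.15 beside 0.01 for all genes. Of the WIPI and lipid transfer genes 7 of 9 were lower in 1-2 KO cells and none was higher, with ATG9A and VMP1 not called. The differences were -0.78 ± 0.07 for WIPI1 (adjusted p = 2.2e-07), -0.71 ± 0.03 for WIPI2 (adjusted p = 2.5e-10), -0.55 ± 0.04 for WDR45B (adjusted p = 2.3e-08) and -0.55 ± 0.07 for ZFYVE1 (adjusted p = 9.6e-06). For ATG14 the difference was -0.60 ± 0.05 (adjusted p = 6.1e-08), and BECN1, PIK3C3 and PIK3R4 of the same complex were lower as well.

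DEPTOR had the largest difference between the knockouts, at -3.00 ± 0.10, or 7.99-fold (adjusted p = 1.0e-11), followed by PRKAA1 at -1.25 ± 0.04 (adjusted p = 2.8e-12) and ULK2, the member most in excess in 1-2 KO cells, at 1.197 ± 0.12 (adjusted p = 5.0e-07). ULK1, ATG10, TSC2 and PRKAA2 were the others higher in 1-2 KO cells, by 0.39, 0.26, 0.28 and 0.13. The intervals of MTOR, ATG9A and ATG4B all lay within 0.12 of 0 on the log2 scale. The plot of the differences between the knockouts shows every member with its interval.

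**Figure D3:**
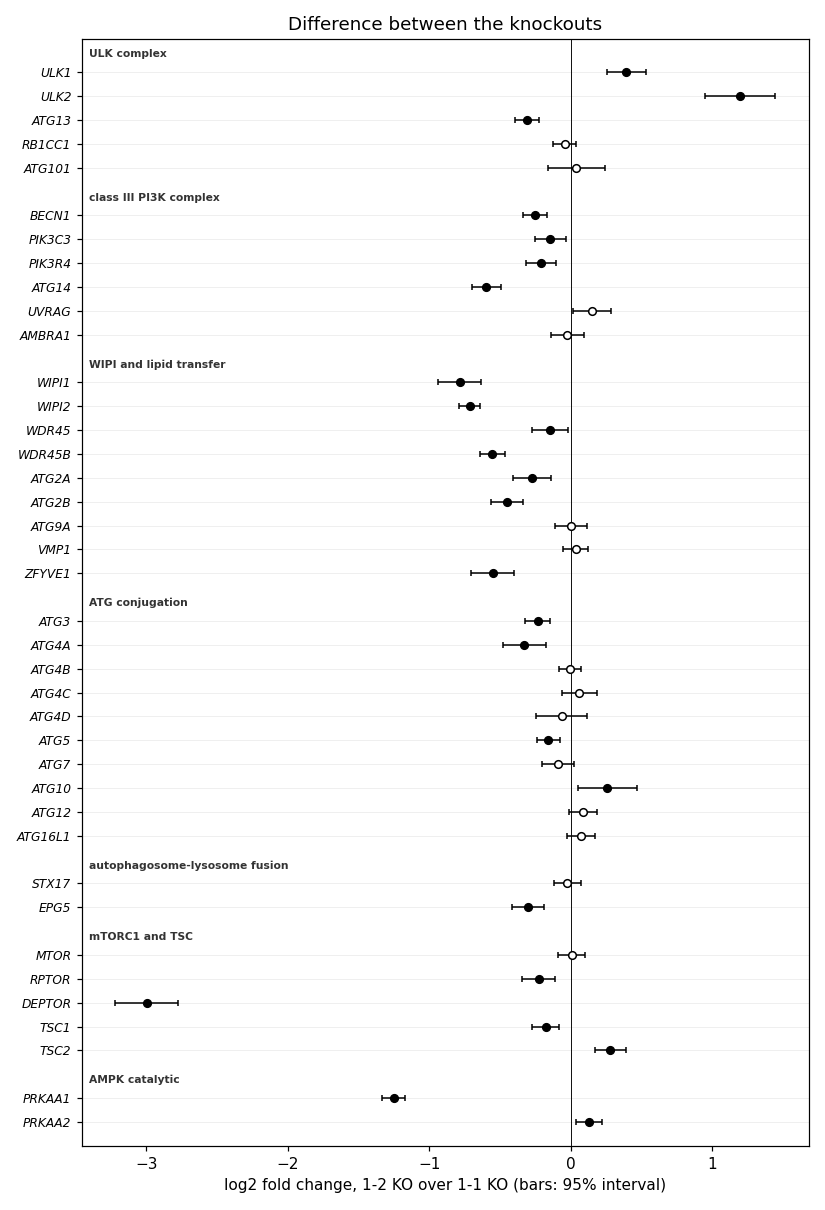
Log2 fold change of each member in 1-2 KO over 1-1 KO cells with its 95% interval, grouped by complex (filled, adjusted p under 0.05; open, not called). The filled points to the left of 0 include 7 of the 9 WIPI and lipid transfer genes, and DEPTOR at -3.00 and ULK2 at 1.197 mark the ends.

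Genes next to the members on the chromosome often moved with them. For each member the median change of the 50 nearest tested genes was taken, and across the 39 members it correlated with the member's own change, at Pearson's r of 0.68 and Spearman's rho of 0.67 in 1-1 KO cells and 0.59 and 0.69 in 1-2 KO cells. This is a description across genes that share the same libraries. The clearest case was PRKAA1, on chromosome 5 at 40759389 to 40798374. Of its 50 neighbours, spread over 7.90 Mb, 41 were lower and 1 was higher in 1-2 KO cells, with a median of -0.93 beside -1.19 for PRKAA1. In 1-1 KO cells the same neighbours had a median of 0.26. The gene lies 99.96 Mb from VTRNA1-2, on the same chromosome. ATG10 and ATG12, also on chromosome 5, lie 58.7 and 24.9 Mb from VTRNA1-2. Their neighbours were at -0.30 and -0.03 in 1-2 KO cells, beside -0.60 and -0.02 for the genes themselves.

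With the neighbours' median subtracted in the fit, 16 members were higher and 6 lower in 1-1 KO cells, 4 and 13 in 1-2 KO cells and 4 and 21 between the knockouts, beside 57.7%, 51.7% and 60.1% of all genes called. Of the calls against WT, 7 of 24 were lost in 1-1 KO cells (PIK3R4, UVRAG, WDR45B, ATG3, ATG4C, ATG4D and RPTOR) and 12 of 23 in 1-2 KO cells (BECN1, ATG14, WIPI2, ATG2B, ATG4C, ATG4D, ATG5, ATG7, RPTOR, TSC1, TSC2 and PRKAA2). RPTOR in 1-1 KO cells was at 0.01 after subtraction (adjusted p = 0.93), beside neighbours at 0.44, WDR45B at 0.04 (adjusted p = 0.48), beside neighbours at 0.38, and PIK3R4 at 0.02 (adjusted p = 0.77). ATG5 in 1-2 KO cells was at -0.05 (adjusted p = 0.31). New calls were made for 5 members in 1-1 KO cells (ULK1, AMBRA1, WDR45, TSC2 and PRKAA1) and for 6 in 1-2 KO cells (WDR45, ATG9A, ATG3, ATG4B, ATG16L1 and MTOR). Between the knockouts 6 of 25 calls were lost (PIK3C3, PIK3R4, ATG5, ATG10, RPTOR and PRKAA1). Another 6 members gained a call there (RB1CC1, AMBRA1, ATG9A, ATG4B, ATG4C and ATG16L1). The p-values of this fit take the neighbours' median as a fixed value and leave out the spread among the neighbours. A call gained or lost in it is thus no test against that spread, which was wide. In 1-1 KO cells the neighbours' quartiles were -0.66 and -0.19 for ULK1 and -0.41 and 0.10 for AMBRA1.

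In that fit PRKAA1 was still lower in 1-2 KO cells than in WT, at -0.26 (adjusted p = 4.6e-05), but its difference between the knockouts was -0.06 with an adjusted p of 0.16. The WIPI2 neighbourhood on chromosome 7 was higher in 1-1 KO cells by 0.47, with 39 of 50 genes higher and 1 lower, and after subtraction WIPI2 was higher by 0.42 in 1-1 KO cells (adjusted p = 1.3e-07) and by 0.02 in 1-2 KO cells (adjusted p = 0.63). ATG2B, with neighbours at 0.40, was higher by 0.26 in 1-1 KO cells after subtraction (adjusted p = 0.0007), and its call in 1-2 KO cells was lost at 0.05 (adjusted p = 0.47). WIPI1 and ZFYVE1, with neighbours at 0.37 and 0.22 in 1-1 KO cells, were higher there by 0.29 and 0.34 after subtraction (adjusted p = 0.0029 and 0.0011). For ATG10 the neighbours were at -0.46 and -0.30, and after subtraction it was at -0.40 and -0.30 (adjusted p = 0.0027 and 0.016). STX17 had neighbours at 0.22 and 0.16, and after subtraction it was at 0.17 and 0.20 (adjusted p = 0.0072 and 0.0021).

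Other members stood apart from their neighbours. ULK2 in 1-2 KO cells rose by 1.64 with its neighbours at 0.01, ATG14 in 1-1 KO cells by 0.47 with neighbours at -0.02, and DEPTOR by 2.16 in 1-1 KO cells with neighbours at 0.41, which left 1.75 after subtraction (adjusted p = 2.7e-09). In 1-2 KO cells DEPTOR fell by 0.84 with neighbours at 0.00. ULK1 had neighbours at -0.46 in 1-1 KO cells, and after subtraction its 0.14 became 0.60 (adjusted p = 2.6e-06). Its increase in 1-2 KO cells went from 0.53 to 0.34 (adjusted p = 0.00049), and its difference between the knockouts turned from 0.39 to -0.26, called in the other direction (adjusted p = 0.003). What moved these neighbourhoods was not tested.

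Several of the small calls in 1-2 KO cells depended on single libraries. The call of ATG14 ended when WT replicate 2 or 3, any library of 1-1 KO cells, or 1-2 KO replicate 1 or 2 was left out, with an adjusted p of up to 0.12, and that of ATG4C ended without WT replicate 1 or 2, any 1-1 KO library, or 1-2 KO replicate 1 or 2, with an adjusted p of up to 0.13. For TSC1 the 6 such libraries were the 3 of WT, 1-1 KO replicate 1 and 1-2 KO replicates 2 and 3 (up to 0.14), and for BECN1 the 5 were WT replicate 1, 1-1 KO replicates 1 and 2 and 1-2 KO replicates 1 and 2 (up to 0.19). ATG13 lost its call without WT replicate 1 or 1-2 KO replicate 1 or 2 (up to 0.065), PIK3C3 without WT replicate 2 or 1-2 KO replicate 1 or 3 (up to 0.13) and TSC2 without WT replicate 2 or 1-2 KO replicate 2 or 3 (up to 0.086). ATG7 did so without WT replicate 2 or 1-2 KO replicate 1 (up to 0.064), and VMP1 and WDR45B without WT replicate 2, at 0.072 and 0.0503. Between the knockouts, the difference of ATG10 lost its call without 1-1 KO replicate 2 or 3 or 1-2 KO replicate 2 or 3 (up to 0.13), that of WDR45 without WT replicate 2, 1-1 KO replicate 1 or 2 or 1-2 KO replicate 1 or 3 (up to 0.15), that of PIK3C3 without 1-1 KO replicate 2 or 1-2 KO replicate 1 (up to 0.077) and that of PRKAA2 without 1-1 KO replicate 2 or 1-2 KO replicate 2 (up to 0.10).

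In level per length, measured as CPM per kilobase of exon, the machinery spanned over 2 orders of magnitude in WT cells. PRKAA1 was first at 60.5, followed by WDR45B at 27.97 and then by MTOR at 15.3, VMP1 and ATG101 at 14.8 each and ATG3 at 13.8. At the low end were ZFYVE1 at 1.72, EPG5 at 1.09, DEPTOR at 0.98 and ULK2 at 0.14. Of the 38 neighbouring pairs in this order, 21 had overlapping libraries and so did not differ beyond their spread. In 1-2 KO cells PRKAA1 was at 26.5 and WDR45B at 25.5, with overlapping libraries. DEPTOR went from rank 38 in WT to rank 29 in 1-1 KO cells, at 4.37, and WIPI2 from rank 17 to rank 9, at 12.5. The order depended in part on the length used. With the longest transcript in place of all exons, PRKAA1 and WDR45B were still first and second in WT, at 75.5 and 39.7, but VMP1 at 34.2 and ATG101 at 32.97 came before MTOR, which was seventh at 22.7. In 1-2 KO cells WDR45B was then first at 36.1, before ATG101 at 35.5 and PRKAA1 at 32.995. By that length DEPTOR went from rank 38 to 32 and WIPI2 from 11 to 6 in 1-1 KO cells, and 5 members had a WT rank that moved by more than 5 places (PRKAA2, WIPI2, ATG14, ATG12 and TSC2). The plot of length-scaled levels gives the order by all exons in full.

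The proteins that act on these members were followed in lists of 80 further genes, of which 76 were tested. In 1-1 KO cells 27 of them were higher and 24 lower, and in 1-2 KO cells 16 were higher and 24 lower, which was 67.1% and 52.6% of those tested. These shares were near the background of 63.4% and 54.4% of all genes, of which 32.5% and 28.2% were higher and 30.9% and 26.2% lower.

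Of the catalytic subunits of AMPK, PRKAA2 had fallen in both knockouts, and PRKAA1 was not called in 1-1 KO cells. The regulatory subunits and activators of AMPK were mostly lower in 1-1 KO cells. Of 8 tested, 6 fell there and 1 rose, with a median of -0.51, against 2 that fell and 3 that rose in 1-2 KO cells. Called were 87.5% and 62.5% of the 8, beside 63.4% and 54.4% of all tested genes. The medians of their neighbours had themselves a median of -0.22 in 1-1 KO cells. PRKAG1, a gamma subunit that binds AMP, fell by 1.28 ± 0.13 (adjusted p = 6.2e-07), and PRKAG2, another, fell by 0.69 ± 0.06 (adjusted p = 4.2e-07). The beta subunit PRKAB1 and the related PRKAB2 fell, with changes of -0.58 ± 0.05 and -0.20 ± 0.04 and with neighbours at -0.34 and -0.37. CAMKK2, the calcium-dependent kinase of AMPK, and STRADA, a partner of LKB1, fell, with changes of -0.43 and -0.59, while STK11, which encodes LKB1, rose by 0.44 ± 0.08 (adjusted p = 0.00024), with neighbours at 0.45. In 1-2 KO cells PRKAG2, CAMKK2 and CAB39 rose, by 0.38, 0.22 and 0.18, and PRKAG1 and PRKAB1 fell, with changes of -0.44 and -0.13. Compared directly, 7 of the 8 were higher in 1-2 KO than in 1-1 KO cells, and STK11 was lower. Of all tested genes, 33.1% were higher and 32.2% lower in that comparison.

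Of 5 tested genes for ATG8 proteins, which the conjugation system attaches to the membrane, 2 differed between the knockouts, MAP1LC3B and GABARAPL1. That was 40% of them, beside 65.3% of all tested genes. MAP1LC3B, the LC3 used as a marker of autophagosomes, rose by 0.42 ± 0.04 in 1-1 KO cells (adjusted p = 8.8e-07) and fell by 0.21 ± 0.04 in 1-2 KO cells (adjusted p = 0.0008). GABARAPL1 rose by 0.98 ± 0.05 and fell by 0.28 ± 0.05 (adjusted p = 5.5e-10 and 0.0003), and its difference in 1-2 KO from 1-1 KO cells was -1.26 ± 0.05. GABARAP was called in neither and GABARAPL2 fell by 0.15 ± 0.05 in 1-2 KO cells. MAP1LC3B2, a close copy of MAP1LC3B whose reads may be shared with it, had an SE of 0.29 and was called in neither.

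Among the partners of mTOR, the activator RHEB fell by 0.69 ± 0.04 in 1-1 KO cells (adjusted p = 4.5e-09), MLST8 fell by 0.24 ± 0.06, and AKT1S1, another inhibitory subunit, rose by 0.38 ± 0.06. TBC1D7, the third subunit of the TSC complex, rose by 0.41 ± 0.05 in 1-1 KO cells and fell by 0.32 ± 0.05 in 1-2 KO cells. RICTOR, which defines mTORC2, fell in both, with changes of -0.12 and -0.81 ± 0.04 (adjusted p = 0.017 and 1.0e-09). Like PRKAA1, it had neighbours that were lower in 1-2 KO cells, at -0.999. Tested were 25 genes that carry the amino acid signal to mTORC1. Called were 72% of them in 1-1 KO and 36% in 1-2 KO cells, beside 63.4% and 54.4% of all tested genes. Of the 25, 10 rose and 8 fell in 1-1 KO cells, and 2 rose and 7 fell in 1-2 KO cells. Those with the smallest adjusted p were SESN3, a sestrin, at 0.53 ± 0.05, and LAMTOR4, a Ragulator subunit, at -0.46 ± 0.05 in 1-1 KO cells, and in 1-2 KO cells the lysosomal transporter SLC38A9 at -1.03 ± 0.05 and LAMTOR5 at -0.73 ± 0.04.

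The fusion machinery beside STX17 and EPG5 had 4 of 10 genes higher and 2 lower in 1-1 KO cells, and 1 higher and 2 lower in 1-2 KO cells. That was 60% and 30% called, beside 63.4% and 54.4% of all tested genes. The SNARE VAMP8, which pairs with STX17 through SNAP29, rose by 0.42 ± 0.04 in 1-1 KO cells and fell by 0.44 ± 0.04 in 1-2 KO cells (adjusted p = 1.0e-06 and 1.1e-06). YKT6 and the HOPS subunits VPS41 and VPS11 rose in 1-1 KO cells by 0.47, 0.45 and 0.28, and VPS16 of the same complex fell by 0.72 ± 0.05 (adjusted p = 7.1e-09). SNAP29 rose by 0.17 ± 0.04 in 1-2 KO cells. Of 16 further regulators, 7 rose and 3 fell in 1-1 KO cells and 5 rose and 7 fell in 1-2 KO cells. The shares called were 62.5% and 75%, beside the same 63.4% and 54.4%. TP53INP1, which binds ATG8 proteins, rose by 1.18 ± 0.07 in 1-1 KO cells, DAPK1, a kinase that acts on beclin 1, by 0.79 ± 0.04 and 0.62 ± 0.04, and BCL2, which binds and inhibits beclin 1, by 2.73 ± 0.23 in 1-2 KO cells (adjusted p = 1.6e-07), from a mean of 0.33 to 2.21 CPM.

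Of the transcription factors known to drive or repress autophagy genes, TFEB was at 1.41 to 1.55 CPM in WT, 1.39 to 1.96 in 1-1 KO and 1.17 to 1.63 in 1-2 KO cells and was called in neither knockout. TFE3, its far more abundant relative, fell by 0.38 ± 0.04 in 1-1 KO cells and rose by 0.16 ± 0.04 in 1-2 KO cells (adjusted p = 1.8e-06 and 0.0043). MITF of the same family rose from a mean of 0.43 to 4.21 CPM in 1-2 KO cells, by 3.25 ± 0.23 (adjusted p = 3.4e-08), and was at 0.44 in 1-1 KO cells. FOXO1 fell by 0.58 ± 0.04 in 1-1 KO cells and rose by 0.19 ± 0.04 in 1-2 KO cells, and FOXO3 rose by 0.54 ± 0.05 and 0.14 ± 0.05. ZKSCAN3, a repressor, fell by 0.39 ± 0.11 in 1-2 KO cells (adjusted p = 0.0098).

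Because the TFEB family binds the letters GTCACGTG, part of the CLEAR element, the members' promoters were searched for them on both strands in RefSeq promoters of GRCh38.p14, from 250 bases before the start to 50 after it. The table held 38 promoters of 32 members and none for UVRAG, ATG4D, RB1CC1, EPG5, STX17, WDR45B and DEPTOR. The letters were present in 3 of the 38 (7.89%), 1 each of ATG3, ATG14 and TSC2, beside 2.40% of all 35116 promoters. The E-box CACGTG, which lies within them, was held by the same 3 promoters and by 7.26% of all promoters. The full element, in which AC follows these letters, was in none of the 38 and in 0.353% of all. The FOXO letters GTAAACA were found in 1 promoter, of WDR45, beside 3.42% of all promoters, and the CCAAT box in 13 of the 38 (34.2%), beside 34.6%. These counts are descriptions and not evidence of binding.

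The 250 bases before the start of these 3 promoters are printed on the strand of the gene, with the matched letters in capitals (in ATG14 as their reverse complement CACGTGAC). They lie at chr3:112561963-112562212 on the minus strand, chr14:55411831-55412080 on the minus strand and chr16:2047735-2047984 on the plus strand. The match starts 20 bases before the start of ATG3, 21 before that of ATG14 and 116 before that of TSC2.

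ATG3: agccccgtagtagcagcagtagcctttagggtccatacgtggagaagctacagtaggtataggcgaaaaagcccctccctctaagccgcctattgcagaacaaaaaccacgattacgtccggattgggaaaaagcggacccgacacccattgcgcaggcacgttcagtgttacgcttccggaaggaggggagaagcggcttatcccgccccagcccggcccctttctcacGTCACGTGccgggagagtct

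ATG14: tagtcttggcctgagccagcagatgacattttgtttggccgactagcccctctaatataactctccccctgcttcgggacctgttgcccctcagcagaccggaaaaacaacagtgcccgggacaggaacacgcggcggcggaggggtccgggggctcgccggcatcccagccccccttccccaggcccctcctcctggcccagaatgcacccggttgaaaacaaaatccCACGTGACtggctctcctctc

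TSC2: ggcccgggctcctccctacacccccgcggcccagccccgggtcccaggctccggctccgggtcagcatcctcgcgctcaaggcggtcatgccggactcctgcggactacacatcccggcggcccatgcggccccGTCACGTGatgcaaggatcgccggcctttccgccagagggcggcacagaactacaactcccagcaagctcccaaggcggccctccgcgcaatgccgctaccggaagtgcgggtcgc

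These 3 members did not share one pattern. ATG14 and ATG3 were higher in 1-1 KO than in WT and in 1-2 KO cells, by 0.47 and 0.17 over WT. Against WT, TSC2 was called only in 1-2 KO cells, where it was higher by 0.16 and ATG14 had a change of -0.12. With the neighbours subtracted, ATG14, ATG3 and TSC2 were at 0.49, -0.07 and -0.22 in 1-1 KO cells. In 1-2 KO cells they were then at -0.12, -0.21 and -0.06.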

How the data were processed

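Stranded mRNA libraries of WT Huh-7 cells and of both knockout lines were sequenced, 3 per line. Reads were aligned to GRCh38 with STAR and assigned to genes with featureCounts by the authors, whose deposited table holds raw counts without normalization. Versions, the strand setting and the treatment of reads with several matches are not given in the sources used here, so reads of overlapping genes (exons of 19 members, DEPTOR and ATG10 among them, overlap another gene's on the opposite strand, by over 10% of their length in ATG101, BECN1, ATG14, WIPI1, ATG4D and ATG7, and those of WDR45, ATG9A and VMP1 on the same strand) may be shared. Groups came from the genotype labels.

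Positions and exon lengths were from GENCODE 44 (60463 of 60664 identifiers matched). Genes were filtered by filterByExpr (minimum count 10, total 15), scaled by TMM and tested by edgeR's quasi-likelihood test (4.0.16, R 4.3.3) with all 9 libraries in 1 fit, and Benjamini-Hochberg adjustment covered all 17207 genes at 0.05. Total counts of 32384469 to 41782387 gave a biological coefficient of variation of 5.55%. CPM values are TMM-scaled. A change against the neighbourhood was fitted with the median log2 fold change of the 50 nearest tested genes as a fixed offset. The test was checked on simulated counts. The members and gene lists were chosen with earlier results of these data known. All members could be named, and of other lists every gene where at most 10 were tested, otherwise the 2 with the smallest adjusted p per knockout. Values in every library are given for members past 0.5 on the log2 scale and the 2 members of each complex with the smallest adjusted p. Alternatives were DESeq2 (1.42.0), other scalings and filters, fits of 2 groups, a stricter threshold, a test against 1.2-fold, the replicate block and leaving out each library. Same-numbered libraries did not deviate together and were not treated as pairs.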

Additional observations from a re-analysis of the deposited data

How the results depend on the processing

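Of 117 results for single members, 42 kept their direction and their side of the threshold under every alternative. The limits lie with small changes. Tested against 1.2-fold, 12 members passed in 1-1 KO cells (10 higher, 2 lower), 6 in 1-2 KO cells (3 and 3) and 10 between the knockouts (2 and 8). Scaling by library size alone gave a median of 0.121 in 1-1 KO and -0.0099 in 1-2 KO cells, with 6 members lower in the latter. At an adjusted p under 0.01, 13 were called in 1-2 KO cells, 6 of them lower, and 3 were higher between the knockouts. With the neighbours subtracted, 4 were higher in 1-2 KO cells. That setting turned the direction of ATG3, ATG4D and PRKAA1 in 1-1 KO cells (-0.066, -0.0099 and -0.198), of ATG4C, ATG16L1, MTOR, RPTOR, TSC1, TSC2 and PRKAA2 in 1-2 KO cells (0.076, -0.116, 0.140, -0.046, -0.015, -0.060 and 0.010) and of ULK1, PIK3R4, ATG9A, ATG5 and ATG16L1 between the knockouts (-0.257, 0.015, -0.274, 0.073 and -0.186), by the construction of the fit. The cause of the other shifts was not tested.

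Leaving out each library in turn, 23 to 27 members were called in 1-1 KO cells (17 to 20 higher, 6 to 9 lower, median 0.0697 to 0.145), 15 to 23 in 1-2 KO cells (7 to 10 higher, 8 to 14 lower, median -0.079 to -0.043) and 21 to 25 between the knockouts (3 to 7 higher, 18 to 20 lower, median -0.168 to -0.097). The lowest counts in 1-2 KO cells came without WT replicate 2 (15 called, 8 lower) and without 1-2 KO replicate 1 (8 lower, and 9 lower in 1-1 KO cells), the median of 0.145 without WT replicate 3, the median of -0.097 without 1-2 KO replicate 1, and 3 higher between the knockouts without 1-1 KO replicate 2 or 1-2 KO replicate 2.

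With the replicate number as a block, 18 members were higher and 6 lower in 1-1 KO cells, 8 and 11 in 1-2 KO cells and 5 and 19 between the knockouts, with 10596, 8986 and 10923 genes called in all. The numbers did not pair the libraries, as the deviations of same-numbered libraries correlated at -0.353 to 0.182. Some differently numbered libraries of WT and 1-2 KO cells did correlate. WT replicate 3 was at 0.459 with 1-2 KO replicate 1 and at -0.339 with 1-2 KO replicate 2. Whether these libraries shared a source of variation was not tested, and the fit did not model one. DESeq2 with all libraries gave 17 and 7, 8 and 11, and 4 and 18 members.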
